A study of Solenopsis invicta with 52 samples.

Results

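The account below covers an unbroken run of 504 genes out of 16314 in the deposited count files of the fire ant Solenopsis invicta, namely the genes in rows 5231 to 5734 of a row order that was the same in every file. These rows form the later part of a longer stretch in which expression differences between SB/Sb and SB/SB workers gathered, so the members were chosen by the fold changes of that contrast. Differences between SB/Sb and SB/SB workers are therefore given as a description. Where a member is said to be called between them, its adjusted p fell under 0.05, which marks genes to describe and is not evidence about the stretch. The identifiers start with SINVBB1, and 0 of the 16314 identifiers matched the RefSeq gene table used here, so no gene name or role is attached to any row. Whether the row order follows the order along a chromosome is not given in the sources used here.

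The supergene of this ant is a block of linked genes on the so-called social chromosome, where inversions suppress recombination between the SB and Sb variants. Colonies with a single queen (monogyne) hold SB/SB workers, while colonies with several queens (polygyne) hold SB/SB and SB/Sb workers. The Sb variant is carried in polygyne colonies as a heterozygote with SB. Workers do not reproduce, and their brain and gaster (the rear body section, with the gut, fat body and glands) differ widely in the genes they express.

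Single workers were sampled from 4 groups. The pBL workers were SB/Sb, came from polygyne colonies and were kept in polygyne host colonies. The pBB workers were SB/SB with the same polygyne origin and host. The mpBB workers were SB/SB from monogyne colonies that were moved to polygyne hosts, and the mBB workers were SB/SB from monogyne colonies kept in monogyne hosts. Brains of 7 workers and gasters of 6 workers were sequenced per group, from 32 workers in all, and 20 workers gave both tissues. All workers weighed 0.6 to 0.9 mg, were 14 to 16 days old and were taken 16 days after placement in a host colony of 250 workers. Their source was 10 monogyne and 9 polygyne stock colonies, each used once per treatment, so a worker stands for a colony within its group. No SB/Sb group had monogyne hosts, so genotype was separated from origin and host only between pBL and pBB.

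Brain libraries held 14527840 to 70040807 gene counts and gaster libraries 30006031 to 77315812. The brain counts ignored strand, because the brain kit does not mark it, whereas the gaster counts were taken from the reverse strand. Counts in brain from genes that overlap on opposite strands cannot be told apart. Tissue and library kit also cannot be told apart. Brain libraries pBL replicate 2 and mBB replicate 4 correlated less with the other brains than the rest did, and gaster library pBB replicate 1 had 53.4% of its reads unmapped.

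Most of the 504 genes were expressed. Levels below are CPM, the gene's share of a library's counts in parts per 1000000, on library sizes scaled by the trimmed mean of M-values (TMM) and without correction for gene length. The other rows are the 15810 genes outside the 504, and they include the earlier part of the longer stretch. Mean levels reached 1 CPM in both tissues for 315 members, or 62.5%, against 53.9% of the other rows. A further 67 members reached it in brain alone and 26 in gaster alone. The remaining 96 members, 19.0%, stayed under 1 CPM in both tissues, against 30.6% of the other rows. The filter on low counts passed 421 members in brain and 399 in gaster, 83.5% and 79.2% of the stretch, against 73.3% and 70.7% of the other rows. The tested members had a median level of 28.8 CPM in brain and 18.9 CPM in gaster, against 25.6 and 17.9 CPM for the other tested rows. Their median biological coefficient of variation between workers of a group was 21.1% in brain and 22.2% in gaster, against 22.0% and 23.3% elsewhere.

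The stretch as a whole took about the same share of each library in every group. In brain it held 2.71% ± 0.075 of the gene counts in pBL, 2.72% ± 0.092 in pBB, 2.70% ± 0.064 in mpBB and 2.65% ± 0.051 in mBB (SD, n = 7 each). In gaster it held 3.48% ± 0.298 in pBL, 3.58% ± 0.292 in pBB, 3.32% ± 0.216 in mpBB and 3.40% ± 0.241 in mBB (SD, n = 6 each). The libraries of the 4 groups overlapped in both tissues, at 2.57 to 2.86% in brain and 3.06 to 3.96% in gaster. Only 7 members, 1.39%, had an identifier with a letter after the number, against 11.5% of the other rows. In gaster 34 of the 411 members with enough strand counts had more reads on the forward than the reverse strand, 8.27% against 6.56% elsewhere.

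A few members belonged almost wholly to 1 tissue, though the highest member in brain was abundant in both. SINVBB1_02103 (row 5549) was the highest member in brain, with group means of 1171 ± 102 CPM in pBL, 1114 ± 139 in pBB, 1088 ± 82.7 in mpBB and 1002.5 ± 68.1 in mBB (SD, n = 7 each), and 464 to 509 CPM in gaster. SINVBB1_03802 (row 5620) followed with brain means of 805 to 847 CPM in the 4 groups but only 0.874 to 1.08 CPM in gaster. SINVBB1_04371 (row 5725) and SINVBB1_04355 (row 5705) had the largest ratios of brain to gaster level. The first lay between 36.0 and 90.6 CPM in every brain and at no more than 0.240 CPM in every gaster.

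The highest gaster member was SINVBB1_01003 (row 5424), which ranged from 1531 to 10809.8 CPM in pBL gasters and from 982 to 10062 CPM in SB/SB gasters. It stayed between 1.08 and 4.77 CPM in all brains. SINVBB1_06525 (row 5310) ranged from 1632 to 4264 CPM in pBL gasters and from 763 to 6106 CPM in SB/SB gasters, and no brain exceeded 1.22 CPM. Both varied several-fold among workers of a group, and in both the pBL range lay mostly inside that of the SB/SB gasters. A brain mean at least 100 times the gaster mean was found for 27 members, 5.36% against 3.90% of the other rows. The reverse held for 14 members, 2.78% against 2.54%. The plot of levels in both tissues shows these members at its edges. Brain levels held reads of both strands and gaster levels the reverse strand alone. A gene read mostly from the forward strand in gaster would therefore show a raised brain to gaster ratio. The same holds for members counted as reaching 1 CPM in brain alone. How many members this affects was not counted.

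**Figure D1:**
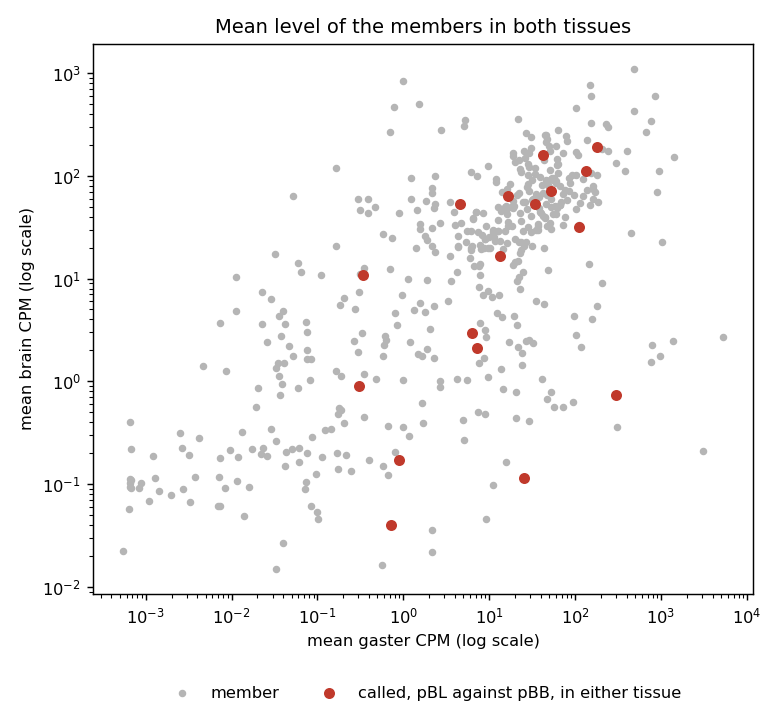
Mean brain CPM against mean gaster CPM, both on log scales, for the 489 members with a mean above 0 in both tissues. Red points are the 17 members called between pBL and pBB in either tissue, and they run from under 1 CPM to over 100 CPM.

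Between pBL and pBB, the pair that shares origin and host, 10 of 421 tested members passed an adjusted p of 0.05 in brain, 6 of them higher and 4 lower in pBL. That is 2.38% of the tested members, beside a background of 0.516% of all 12006 tested genes (0.458% higher and 0.0583% lower). In gaster 10 of 399 passed, 7 higher and 3 lower, 2.51% beside a background of 0.596% of 11574 genes (0.501% higher and 0.095% lower). Since this contrast chose the stretch, nothing is read from the distance to the background. The median log2 fold change over all tested members was 0.02 in brain and -0.01 in gaster, against 0.02 and 0.00 over all tested genes. The other tested members were not called in their tissue.

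The called members sat unevenly within the stretch, as the plot of fold change by row shows. The same contrast chose the stretch, so nothing is read from where the calls lie. Cut into 6 windows of 84 rows, the stretch held 5, 9, 1, 1, 1 and 0 members called in either tissue. Rows 5283 and 5609 were the first and last called, and 14 of the 17 lay in the first 168 rows. No member of the last window was called, with 74 of its rows tested in brain and 61 in gaster. In the first 2 windows 52 and 60 rows were tested in brain, and 51 and 64 in gaster. The first window also held the most silent genes, with 32 of 84 under 1 CPM in both tissues, against 4 of 84 in the third window.

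**Figure D2:**
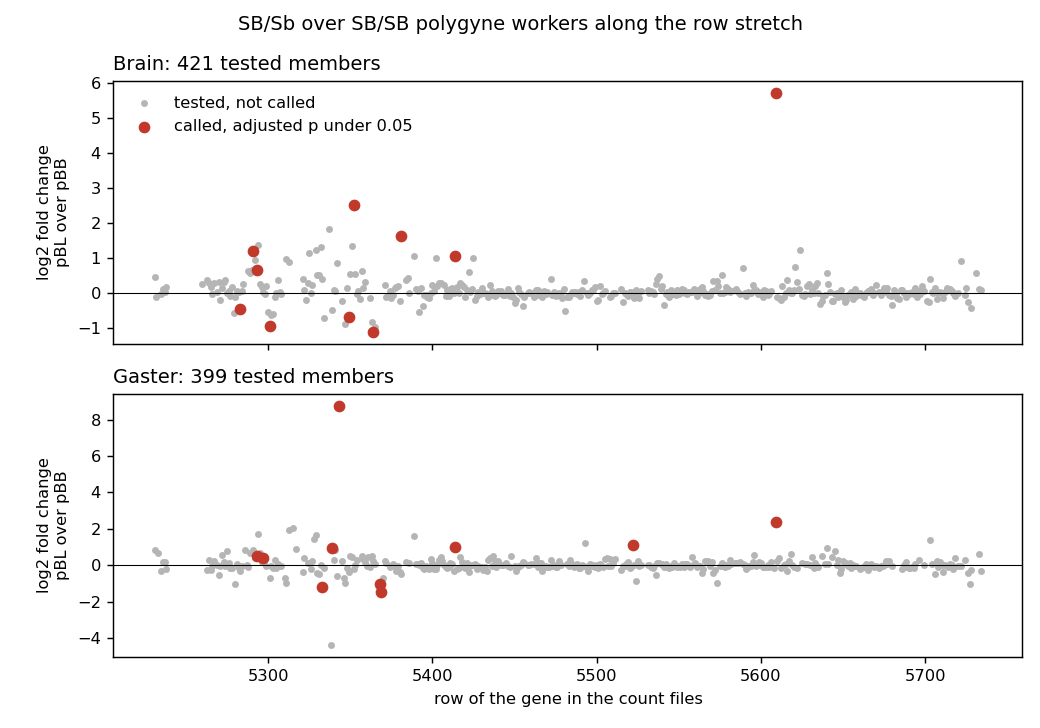
Log2 fold change of pBL over pBB (edgeR, y axis) by row of the gene in the count files (x axis), brain above and gaster below. Red points passed an adjusted p of 0.05, 10 in each tissue, and most stand between rows 5283 and 5414.

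Against mpBB, 10 members were called in brain and 9 in gaster, beside backgrounds of 0.5% and 0.536%. Against mBB the counts were 9 and 11, beside 0.566% and 0.769%. These comparisons share the pBL libraries and are not independent of each other. In each tissue 7 members were called against every SB/SB group, and 3 of them were the same in both tissues. All 3 were higher in pBL. Row 5609, 1 of the 3, passed the filter on low counts only because of its pBL libraries. It could not have been called lower in pBL. Without regard to any test, every pBL library lay above every SB/SB library at 4 tested members in brain and 6 in gaster, beside 0.3% and 0.415% of all tested genes. Of these, row 5609 in brain and row 5343 in gaster passed the filter only because of the pBL libraries. Every pBL library lay below every SB/SB library at 0 members in brain and 1 in gaster, beside 0% and 0.0346%.

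SINVBB1_00994 (row 5414) was among those called in both tissues. It had a lowest, median and highest level of 98.6, 104 and 121 CPM in pBL brains, against 46.7, 50.5 and 61.8 CPM in pBB, 44.3, 49.3 and 56.5 CPM in mpBB and 42.6, 47.6 and 53.3 CPM in mBB. In gaster it had 24.6, 26.6 and 29.4 CPM in pBL, against 10.8, 13.9 and 14.6 CPM in pBB, 10.5, 13.1 and 14.8 CPM in mpBB and 11.1, 12.2 and 14.8 CPM in mBB. Every pBL library stood above every SB/SB library in both tissues, and the SB/SB groups overlapped each other. The log2 fold change of pBL over pBB was 1.06 ± 0.073 (SE) in brain and 0.99 ± 0.096 in gaster.

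The gene at row 5293 moved less but as evenly. It had 62.1, 70.3 and 86.7 CPM in pBL brains, against 40.7, 47.5 and 49.9 CPM in pBB, 43.1, 45.8 and 57.9 CPM in mpBB and 38.4, 47.7 and 51.6 CPM in mBB. In gaster the values were 38.3, 45.2 and 46.4 CPM in pBL, against 28.9, 30.4 and 34.1 CPM in pBB, 26.9, 30.6 and 34.2 CPM in mpBB and 27.3, 29.9 and 32.9 CPM in mBB. The pBL libraries again lay above all SB/SB libraries in both tissues. The log2 fold change over pBB was 0.66 ± 0.084 in brain and 0.49 ± 0.072 in gaster.

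The gene at row 5609 was near the floor in SB/SB workers and low in pBL. It had 2.32, 3.37 and 4.39 CPM in pBL brains, against at most 0.130 CPM in pBB and 0.129 CPM in mBB. In mpBB brains it had 0, 0.036 and 1.32 CPM, the highest being replicate 15. In gaster it had 0.336, 0.882 and 1.18 CPM in pBL, against 0.064, 0.124 and 0.443 CPM in pBB, with mpBB at no more than 0.276 and mBB at no more than 0.152 CPM. In brain no SB/SB library reached the lowest pBL library, while in gaster pBB replicate 1 did. Summed counts were 599 over the 7 pBL brains and 12 over the 7 pBB brains. In both tissues the gene passed the filter on low counts only because of its pBL libraries.

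Other called members differed in 1 tissue only, or in opposite directions. SINVBB1_02125 (row 5522) had 157, 207 and 283 CPM in pBL gasters, against 90.5, 101 and 112 CPM in pBB, 95.9, 104 and 116 CPM in mpBB and 103, 108 and 113 CPM in mBB. All 6 pBL gasters lay above all 18 SB/SB gasters, and the pBL gasters were themselves spread over a far wider range. In brain its group means were 110 ± 12.6 CPM in pBL, 111 ± 13.4 in pBB, 112 ± 15.8 in mpBB and 109 ± 14.6 in mBB (SD, n = 7 each). The log2 fold change over pBB was 1.10 ± 0.12 in gaster and -0.01 in brain. In gaster it was 0.68 among workers with individual numbers under 140 in the labels, where the gene was not called, and 1.44 among those with higher numbers.

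SINVBB1_06378 (row 5333) was the member whose pBL gasters all lay below the SB/SB gasters. It had 24.6, 25.8 and 32.0 CPM in pBL gasters, against 47.2, 63.4 and 72.0 CPM in pBB, 47.4, 66.8 and 72.5 CPM in mpBB and 46.1, 56.4 and 74.0 CPM in mBB. In brain it had 63.3, 83.5 and 132 CPM in pBL, against 53.2, 67.7 and 80.0 CPM in pBB. There the ranges overlapped and the pBL median was the higher one. The log2 fold change over pBB was -1.18 ± 0.13 in gaster and 0.41 in brain, where it was not called.

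Row 5339 showed the reverse signs. It had 5.23, 6.59 and 8.32 CPM in pBL gasters, against 2.80, 3.46 and 4.88 CPM in pBB, and all pBL gasters exceeded all SB/SB gasters. In brain it had 33.4, 40.4 and 52 CPM in pBL, against 42.0, 59.3 and 71.3 CPM in pBB, with overlapping ranges. SINVBB1_03520 (row 5364) likewise was lower in brain, with 16.4, 17.4 and 31.5 CPM in pBL against 29.3, 39.1 and 59.4 CPM in pBB. In gaster it had 122, 126 and 166 CPM in pBL against 97.9, 109 and 147 CPM in pBB. Its mBB brains, at 15.7, 26.2 and 31.6 CPM, overlapped the pBL brains almost fully, and it was not called between pBL and mBB in brain.

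**Figure D3:**
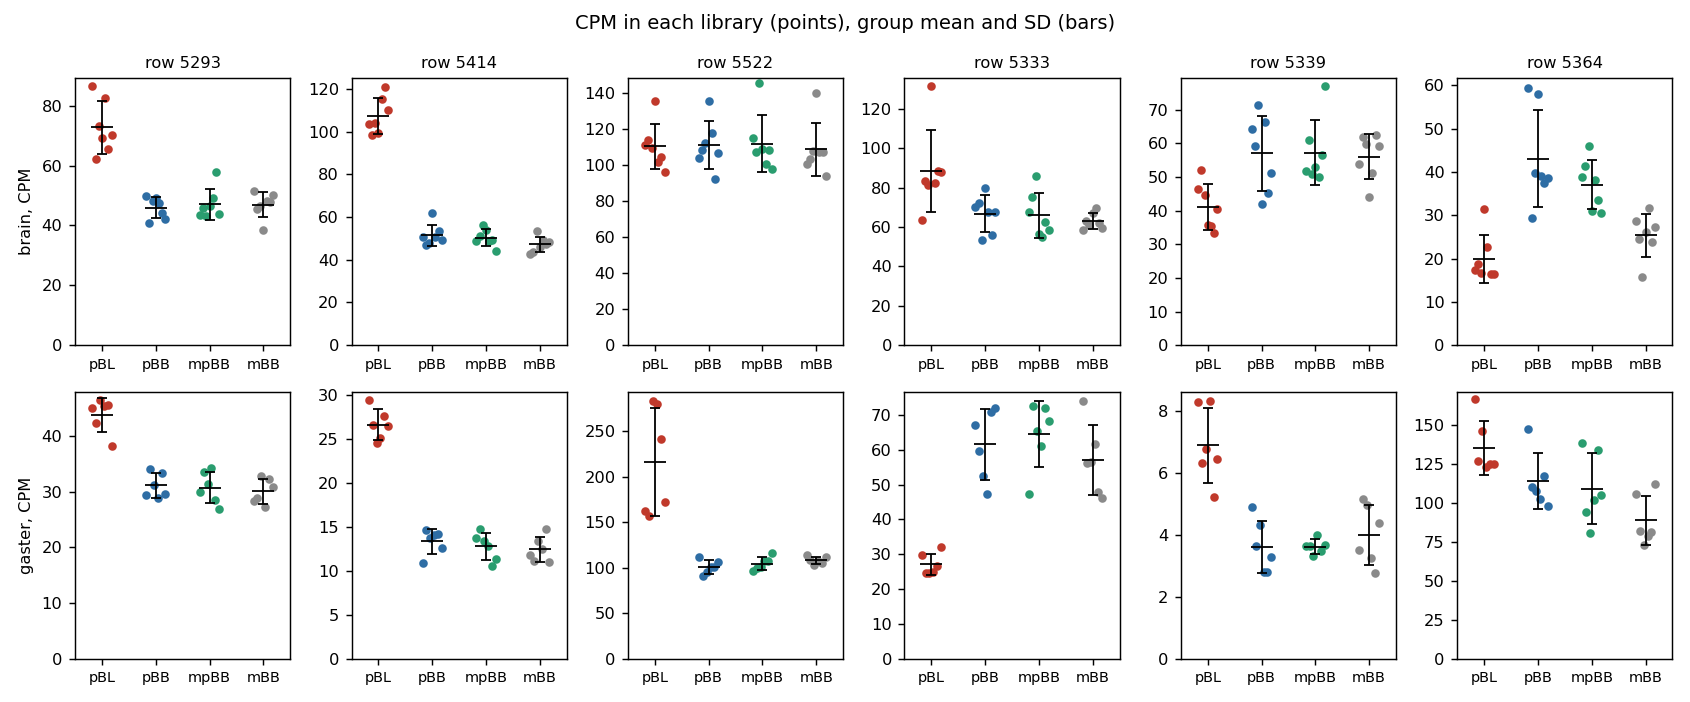
CPM in each library (points) with the group mean and SD (black), brain above and gaster below, for the members at rows 5293, 5414, 5522, 5333, 5339 and 5364. Groups run pBL, pBB, mpBB, mBB, and each y axis starts at 0. At rows 5293 and 5414 the pBL points clear all others in both tissues, at rows 5522, 5333 and 5339 in gaster alone.

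The fold changes of the 2 tissues can be set side by side in 1 fit over all 52 libraries, which rests on the same pBL and pBB contrast and is no test of the members. There the log2 fold change of pBL over pBB in brain minus that in gaster was 1.58 ± 0.19 (SE) for row 5333 and -1.41 ± 0.19 for row 5339. It was -1.37 ± 0.23 for row 5364 and -1.14 ± 0.17 for row 5522. That fit took unstranded counts in both tissues, whereas the gaster levels given above are from the reverse strand.

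Among members called in brain alone, SINVBB1_00966 (row 5381) had 2.51, 6.27 and 7.12 CPM in pBL brains, against 0.867, 1.89 and 3.16 CPM in pBB. The lowest pBL brain, replicate 1, fell inside the SB/SB range, and the other 6 lay above it. In gaster the same gene had 3.62, 4.98 and 7.0 CPM in pBL, against 5.76, 7.08 and 7.20 CPM in pBB. SINVBB1_06583 (row 5301) was lower, with 4.88, 6.69 and 10.1 CPM in pBL brains against 8.81, 13.5 and 17.9 CPM in pBB, and it stayed at no more than 1.66 CPM in all gasters. SINVBB1_06634 (row 5291) had 1.94, 3.03 and 5.52 CPM in pBL brains, against 0.465, 1.43 and 2.82 CPM in pBB. Its ranges overlapped, and it was not called when replicate numbers entered the fit as a block, nor without brain libraries pBL replicate 2 and mBB replicate 4.

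Row 5283 was a well expressed member that was lower in pBL, with 103, 125 and 139 CPM in pBL brains against 139, 175 and 182 CPM in pBB. Row 5349 had 94.3, 128 and 184 CPM in pBL brains against 171, 219 and 281 CPM in pBB. This call too was lost when replicate numbers entered as a block. Row 5352 was barely detected in brain, with 1.70, 2.0 and 2.13 CPM in pBL against 0.058, 0.261 and 0.95 CPM in pBB, while its gasters ran from 85.7 to 497 CPM in pBL and from 96.0 to 564 CPM in the SB/SB groups. The 7 pBL brains lay above all 21 SB/SB brains, while the gasters of the groups overlapped.

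In gaster the gene at row 5343 was almost without counts in SB/SB workers. The 6 pBL gasters had 1277 counts in all, between 1.04 and 6.0 CPM each. The 6 pBB gasters had 2 counts in all, and the mpBB and mBB gasters 1 count each. With so few SB/SB counts no fold change is given, and this gene passed the filter through the pBL gasters alone. In brain it had at most 1.42 CPM in any library and was not called.

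SINVBB1_09474 (row 5368) was lower in pBL gasters, with 11.1, 16.7 and 21.2 CPM against 27.1, 31.3 and 42.7 CPM in pBB, 20.5, 30.2 and 35.5 CPM in mpBB and 18.6, 24.4 and 28.3 CPM in mBB. The pBL and pBB gasters did not overlap, but the pBL gasters overlapped mpBB and mBB. Row 5297 had 12.9, 14.7 and 17.1 CPM in pBL gasters against 10.2, 11.3 and 12.4 CPM in pBB. Its mBB gasters reached 17.6 CPM, and it was called against pBB only. Row 5369 was close to the floor, with 0.240, 0.422 and 0.487 CPM in pBL gasters against 0.537, 1.18 and 1.57 CPM in pBB. Its mpBB gasters, at 0.408 to 1.06 CPM, and its mBB gasters, at 0.276 to 0.992 CPM, overlapped both pBL and pBB. Rows 5297 and 5369 were no longer called without gaster library pBB replicate 1, although both kept their sign.

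Another 4 members were called against an SB/SB group other than pBB alone, which brings the members called against at least 1 SB/SB group in either tissue to 21. Row 5353 was called in brain against mBB, with 129, 201 and 258 CPM in pBL brains against 61.9, 112 and 146 CPM in mBB, while pBB and mpBB brains lay between 98.1 and 248 CPM. Row 5275 was called in gaster against mBB, with 12.3, 15.5 and 26.3 CPM in pBL gasters against 7.60, 8.43 and 12.8 CPM in mBB. Row 5389, called in gaster against mBB, had 0.128, 0.395 and 0.540 CPM in pBL gasters against 0.015, 0.057 and 0.127 CPM in mBB. In gaster it passed the filter mostly through the pBL libraries. The fourth was row 5294, whose values stand further on. At rows 5353, 5275 and 5389 the pBL libraries overlapped those of at least 1 SB/SB group.

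Several called members stood beside genes that were far more abundant in gaster than in brain. Row 5345 had gaster means of 1726 ± 724 CPM in pBL, 1472 ± 667 in pBB, 1202 ± 584 in mpBB and 1064 ± 598 in mBB (SD, n = 6 each). Row 5348 had 871 ± 141 CPM in pBL gasters, 979.7 ± 143 in pBB, 958 ± 130.4 in mpBB and 992 ± 142 in mBB. Row 5353 had 1422 ± 205 CPM in pBL gasters, 1431 ± 136 in pBB, 1448 ± 172 in mpBB and 1359.8 ± 138 in mBB (SD, n = 6 each). None of these rows was called between pBL and pBB in gaster, though rows 5343, 5349 and 5352 nearby were each called in 1 tissue.

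The workers carried individual numbers in the labels that fell into a set under 140 and a set over 140, with 3 or 4 workers per group and tissue in each set. Within these sets fewer members were called between pBL and pBB, 1 and 4 in brain and 2 and 7 in gaster, in fits with fewer libraries. Over all genes those fits called 12 and 38 in brain and 17 and 34 in gaster. Row 5414 was called in both sets in both tissues, with log2 fold changes between 1.05 and 1.09 in brain over all settings tried. The called members kept the sign of their fold change in both sets.

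The comparisons among SB/SB workers did not choose the stretch, so they were tested. The pBB libraries were also part of the contrast that chose it, so the comparisons with pBB are not independent of that choice. None of the members passed an adjusted p of 0.05 (edgeR's quasi-likelihood test with Benjamini-Hochberg adjustment over all genes) for adult host in workers of monogyne origin (mpBB against mBB), for origin in polygyne hosts (pBB against mpBB) or for both together (pBB against mBB), in brain or gaster. The background was 0% of all genes in 5 of these 6 comparisons, and 0.0605% for pBB against mBB in gaster, where 7 of 11574 genes were called. DESeq2 called 1 member between pBB and mpBB in each tissue, beside 1 of all 12006 genes in brain and 6 of 11565 in gaster. Between pBB and mBB in brain it called 2 of 421 members, beside 4 of 12006 genes. For the same groups in gaster it called 12 of 399 members, beside 290 of 11565 genes.

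At an unadjusted p under 0.05 the share of members was near that of all tested genes in each comparison. In brain 11 members passed between mpBB and mBB, 2.61% beside a background of 2.27%. For pBB against mpBB it was 8 members, 1.90% beside 1.57%, and for pBB against mBB it was 15 members, 3.56% beside 4.14%. In gaster 14 members passed between mpBB and mBB, 3.51% beside 4.58%, and 13 between pBB and mpBB, 3.26% beside 2.72%. For pBB against mBB in gaster it was 52 members, 13% beside 13%, the highest share of the 6 comparisons.

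**Figure D4:**
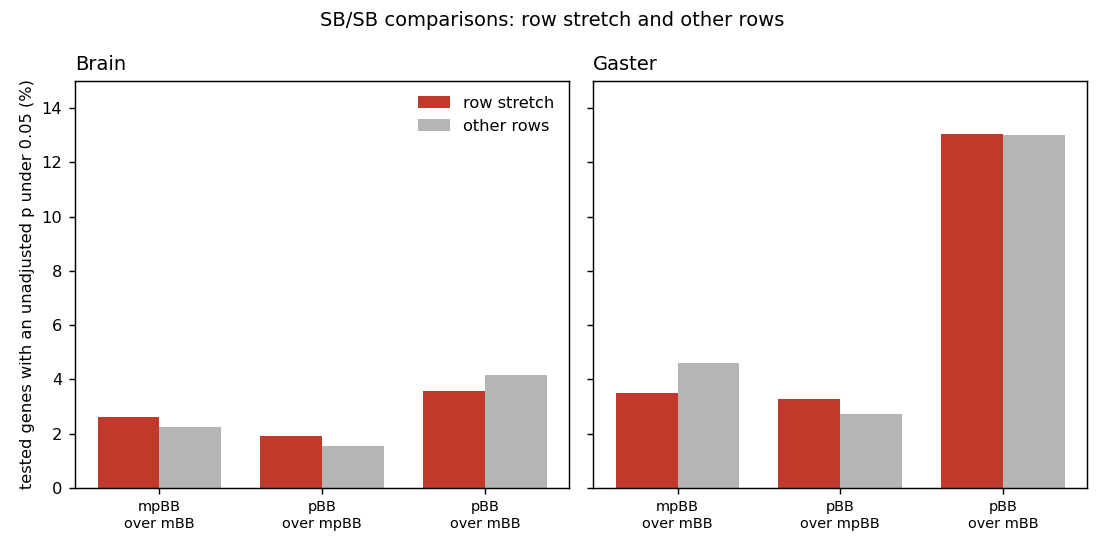
Percentage of tested genes with an unadjusted p under 0.05 (y axis) for the row stretch (red) and the other rows (grey) in the 3 comparisons among SB/SB workers, brain left and gaster right. The bars of a pair are of similar height, at 3.51% and 4.62% in the pair furthest apart.

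The members nearest to the threshold were in gaster between pBB and mBB. SINVBB1_01001 (row 5418) had 58.5, 69.9 and 79.6 CPM in pBB gasters, against 82.0, 95.5 and 108 CPM in mBB. All 6 pBB gasters lay below all 6 mBB gasters. Its log2 fold change was -0.48 ± 0.095 (SE), with an adjusted p of 0.0585 in edgeR, and over the alternatives it lay between 0.000547 in DESeq2 and 0.293. Between mpBB and mBB the log2 fold change was -0.38 ± 0.094, with mpBB gasters at 65.3, 73.3 and 87.0 CPM and an adjusted p of 1.00 in edgeR. The pBL gasters, at 70.0, 76.1 and 89.6 CPM, overlapped each SB/SB group.

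SINVBB1_04374 (row 5734, the last row of the stretch) was higher in pBB gasters, with 15.4, 23.0 and 78.9 CPM against 1.78, 5.52 and 13.2 CPM in mBB. The ranges did not overlap, the log2 fold change was 2.41 ± 0.53 and the adjusted p was 0.0677 in edgeR, with 0.000628 to 0.492 over the alternatives. Among workers numbered under 140 the log2 fold change was 1.57. It had 4.53, 24.4 and 58.7 CPM in pBL gasters and 5.48, 8.37 and 15.9 CPM in mpBB gasters. Both groups of polygyne origin thus had the higher medians, though the mpBB gasters overlapped pBL and pBB. In brain it lay between 1.57 and 6.87 CPM in all libraries.

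In the comparisons by brain, SINVBB1_09469 (row 5348) had the smallest p of the members higher in mpBB than in mBB. It had 84.1, 120 and 164 CPM in mpBB brains against 38.5, 86.9 and 111 CPM in mBB, a log2 fold change of 0.61 ± 0.16 with an adjusted p of 1 in edgeR. SINVBB1_03810 (row 5610) led the lower ones, at 2.25, 3.96 and 4.38 CPM in mpBB brains against 3.08, 6.12 and 8.54 CPM in mBB. SINVBB1_06719 (row 5290) was lowest in pBB, with 5.97, 11.6 and 16.1 CPM in pBB brains against 12.6, 16.3 and 22.2 CPM in mpBB. SINVBB1_15132 (row 5351) had 1.65, 2.60 and 3.82 CPM in pBB brains against 2.81, 5.53 and 13.7 CPM in mBB. These groups overlapped in each case, and none of the differences passed the adjustment.

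In gaster SINVBB1_12733 (row 5727) had the smallest p of the members higher in mpBB than in mBB, with 7.34, 17.3 and 19.4 CPM in mpBB against 5.36, 8.07 and 11.5 CPM in mBB. Its pBB gasters had 9.04, 12 and 24 CPM and its pBL gasters 4.10, 6.82 and 10.9 CPM. SINVBB1_06604 (row 5297), described above as higher in pBL, led the members lower in pBB than in mpBB, with 10.2, 11.3 and 12.4 CPM in pBB gasters against 12.8, 13.7 and 14.9 CPM in mpBB. Those ranges did not overlap, the log2 fold change was -0.29 ± 0.092 and the adjusted p was 1.00 in edgeR.

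Some members differed between single workers of the same group. SINVBB1_06613 (row 5294) was on in every pBL worker, in some pBB workers and in no worker of monogyne origin. It had 39.8, 46.3 and 50.7 CPM in pBL brains. Among the 7 pBB brains, replicates 1, 3 and 5 had 33.4 to 43.6 CPM and the other 4 had 0.477 to 1.46 CPM. The mpBB brains had 0.576, 1.28 and 2.74 CPM and the mBB brains 0.803, 1.17 and 1.95 CPM.

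The gasters showed the same workers on. All 6 pBL gasters had 7.02 to 12.7 CPM, and pBB replicates 1, 3 and 5 had 5.04 to 6.93 CPM. The other 3 pBB gasters had 0.085 to 0.497 CPM, the mpBB gasters at most 0.935 CPM and the mBB gasters at most 0.784 CPM. Replicates 1, 3 and 5 of pBB gave both tissues, and so did replicates 6 and 7, which were low in both. In gaster every pBL library stood above every pBB library, the on ones included, whereas in brain the 2 sets of on libraries overlapped.

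Between pBB and mpBB the log2 fold change of this gene was 3.65 ± 0.74 (SE) in brain and 3.04 ± 0.72 in gaster, with adjusted p of 0.367 and 0.717 in edgeR. Against mBB it was 3.74 ± 0.74 in brain and 2.53 ± 0.70 in gaster, with adjusted p of 0.164 and 0.103 in edgeR. With the replicate number as a block the brain value against mBB was 2.15, with an adjusted p of 0.745 in edgeR. DESeq2 called it between pBB and mpBB in both tissues, with adjusted p of 0.00125 in brain and 0.00578 in gaster, and between pBB and mBB in brain, with 0.000526. Over the alternatives its adjusted p between pBB and mpBB in brain lay between 0.00125 and 1.00. The pBB group mean averages 3 high and 4 low brains.

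SINVBB1_14997 (row 5338) was on in some SB/SB gasters of every group and in no pBL gaster. It had 5.88 and 11.6 CPM in 2 of 6 pBB gasters, 8.37 and 10.6 CPM in 2 of 6 mpBB gasters and 5.05 and 7.88 CPM in 2 of 6 mBB gasters. The remaining SB/SB gasters had at most 0.145 CPM, and the 6 pBL gasters 0.078 to 0.304 CPM. In brain it was not above 0.158 CPM in any library. SINVBB1_09471 (row 5345) was also uneven in brain, at 0.202 to 8.21 CPM in pBL brains and 0.043 to 14.2 CPM in SB/SB brains. It was abundant in every gaster, at 820 to 2557 CPM in pBL and 337 to 2165 CPM in the SB/SB groups.

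The gene at row 5362, singled out after its values were seen, varied between workers in a like way in both tissues and in all 4 groups. Over the 20 workers with both tissues, 9 had 3.40 to 10.4 CPM in gaster and 0.622 to 2.17 CPM in brain. Another 4 had 20.1 to 32.2 CPM in gaster and 8.14 to 14.9 CPM in brain, and 7 had 35.0 to 44.3 CPM in gaster and 16.8 to 21.9 CPM in brain. The 9 low workers were 2 pBL, 2 pBB, 2 mpBB and 3 mBB, and the 7 high ones 2 pBL, 1 pBB, 2 mpBB and 2 mBB. Its group means were alike, at 21.3 ± 16.0 CPM in pBL gasters, 22.9 ± 13.8 in pBB, 23.8 ± 14.6 in mpBB and 22.8 ± 19.0 in mBB (SD, n = 6 each). Rows 5294 and 5362 were the 2 of 377 members tested in both tissues whose levels within groups correlated above 0.8 between brain and gaster of the same worker, 0.531% against 1.27% of the other rows.

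**Figure D5:**
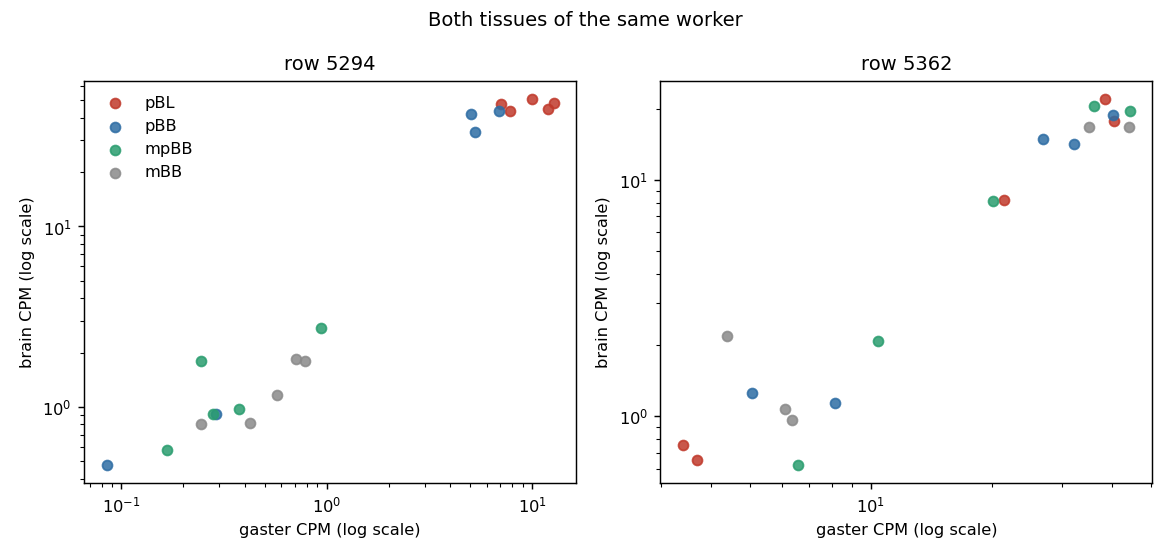
Brain CPM against gaster CPM of the same worker, both on log scales, for rows 5294 (left) and 5362 (right), with 5 workers per group. At row 5294 the pBL points and 3 pBB points stand apart at the upper right, and at row 5362 all 4 groups have low and high workers.

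Neither the first and last rows described here nor the rows next to them were called between pBL and pBB in either tissue. The row before row 5231 belongs to the earlier part of the longer stretch, so it does not lie outside that stretch. The first member, row 5231, had log2 fold changes of pBL over pBB of 0.46 in brain and 0.83 in gaster, and the row before it had -0.36 and 0.13. The last member, row 5734, had 0.09 and -0.29, and the row after it had -0.12 and -0.50. Row 5231 was itself uneven, with 2.27, 74.0 and 101 CPM in pBL brains, 2.12, 47.1 and 77.9 CPM in pBB, 1.30, 71.5 and 92.4 CPM in mpBB and 2.55, 32.6 and 90.8 CPM in mBB. The lowest brains were replicate 4 of pBL, pBB and mBB and replicate 12 of mpBB. Their unmapped reads were 6.94, 6.73, 13.6 and 7.19% in that order, against a median of 18.8% over all brains. Whether the low values belong to the workers or to a shared handling of these libraries was not tested.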

How the data were processed

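RNA of single worker brains and gasters was sequenced from 52 libraries in 4 groups. The values used are the deposited read counts per gene. Per the submitters' processing notes, reads went through Trim Galore, STAR and edgeR, and neither versions nor a genome build are given there. Each file held 3 count columns and 4 rows without a gene name, which were left out of library sizes. Reads assigned to no gene made up 34.9 to 43.0% (brain) and 9.75 to 15.9% (gaster). Brain used the unstranded column, since 49.7 to 50.1% of strand counts were on the reverse strand, and gaster the reverse-strand column, at 96.1 to 97.1%. No 2 libraries held identical counts.

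Counts were fitted per tissue with all 4 groups in edgeR 4.0.16 (R 4.3.3), with TMM factors, filterByExpr and glmQLFTest, and p-values adjusted over all tested genes. SE is the log2 fold change divided by the square root of F. The genotype-by-tissue fit used the pBL and pBB effects over both tissues, with the unstranded column for gaster as well as brain. Fits were tested on simulated data. The members and the gene lists were chosen with earlier results of these data known. Genes named by identifier were, per tissue, the 2 called members with the largest rise and fall between pBL and pBB above a mean log2 CPM of 1, the smallest p in each direction of each SB/SB comparison, the 2 highest, the 2 with the largest ratio of highest to median CPM among SB/SB libraries, and the 2 with the largest tissue ratios. Other members are given by row. Alternatives were RLE factors, other filters, the unstranded gaster column, covariates, subsets and DESeq2 1.42.0. Same-numbered brain libraries of pBL and pBB deviated together in all 7 pairs, with correlations of 0.143 to 0.497, so those numbers were taken to pair them. In the other comparisons not every pair passed 0.1, but all same-numbered pairs were positive, from 0.0438 upward. Their means there were 0.146 to 0.319. Libraries with unlike numbers had means of -0.0631 to -0.0254. Deviations from a group mean cancel within the group, so those means follow from the same-numbered ones and add no support. The main fits did not use the same-numbered pairs, so their p-values ignore what same-numbered libraries share. Nothing in the labels gives separate cultures beyond stock colonies, and p-values measure the spread between these workers.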

Additional observations from a re-analysis of the deposited data

Results flagged for a closer look

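The log2 fold change of pBL over pBB in brain minus that in gaster is given for the 7 members with an adjusted p under 0.05 in a joint edgeR fit. These were 7 of 467 tested members, 1.50%, beside a background of 35 of all 13452 tested genes, 0.26%. With the worker as a block 5 of 456 members passed, beside 29 of 13251 genes. The contrast behind it chose the stretch, so these are values and no test of the members. The difference was -2.26 at row 5300, -1.41 at row 5339, -1.37 at row 5364 and -1.14 at row 5522. It was 1.58 at row 5333, 2.11 at row 5381 and 2.75 at row 5352. Row 5300 had at most 2.0 CPM in any library. Its summed reverse-strand gaster counts were 93 in pBL, 13 in pBB, 9 in mpBB and 3 in mBB, while the joint fit used unstranded counts. With the worker as a block neither row 5300 nor row 5352 passed.

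A single library stood far from its group in 11 of 88 groups of the called members. The rate of about 1 in 20 set beside such flags was assumed, so nothing is read from the distance to it. At row 5381 the flagged libraries were brain pBL replicate 1, at 2.51 CPM, and brain mpBB replicate 16, at 4.19 CPM. Brain pBL replicate 4 was high at row 5364, at 31.5 CPM, brain mpBB replicate 15 at row 5293, at 57.9 CPM, and brain mBB replicate 4 at row 5352, at 0.849 CPM. Brain pBB replicate 4 was low at row 5283, at 139 CPM. At row 5609 brain mpBB replicate 15 had 1.32 CPM and gaster pBB replicate 1 had 0.443 CPM, both above their groups. Gaster pBL replicate 7 was low at row 5369, at 0.240 CPM. At row 5343 gaster mpBB replicate 13, at 0.015 CPM, and gaster mBB replicate 3, at 0.017 CPM, were each the only library of its group with a count.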

How the results depend on the processing

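Of 127 member counts under alternative settings 105 stayed within 1.5 times the reported count, and no named fold change turned its direction in 212 values. Many of those 105 were counts of 0 among SB/SB workers that stayed at 0, where such a limit says little. With workers numbered under 140 alone, the counts of members called in brain were 1 against pBB, 1 against mpBB and 2 against mBB for pBL, and in gaster 2, 2 and 2. Over all genes these fits called 12, 14 and 14 in brain and 17, 18 and 20 in gaster. With those over 140 alone the members called were 4, 3 and 4 in brain, and 7 against mBB in gaster. Over all genes the calls there were 38, 36 and 37 in brain, and 50 against mBB in gaster. These fits held fewer libraries. DESeq2 called 17 members between pBL and mBB in brain, and in gaster 17 against pBB, 14 against mpBB and 19 against mBB. Over all genes it called 101 of 12006 in that brain comparison, and 108, 92 and 174 of 11565 in gaster. It called 1 between pBB and mpBB in each tissue and 2 in brain between pBB and mBB. Between pBB and mBB in gaster, where edgeR called 0 members, RLE factors gave 1 and the filter at 1 CPM in 6 libraries 1. The unstranded column gave 2, a covariate for numbers under 140 gave 7 and DESeq2 12. Over all genes these settings called 7, 8, 11, 141 and 290 in the same order, and the cause was not tested. With the replicate number as a block, pBL against pBB gave 9 members in brain and 8 in gaster, pBL against mBB 8 and 11, and pBB against mBB 0 and 0, and between pBL and pBB it ended the calls at rows 5291 and 5349 in brain and at rows 5297, 5369 and 5609 in gaster. Over all genes those block fits called 67 and 63, 55 and 75, and 0 and 2, in the same order. The mpBB replicates share no numbers with the other groups, so no paired fit was made for them. No gaster library lay far enough from the others to be left out on its correlation, so that setting was run in brain alone. Members near 0 counts in SB/SB workers are limited by depth.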
